A study of Rattus norvegicus with 12 samples.

Results

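The monoamine and muscarinic G-protein-coupled receptors are the cell-surface receptors for dopamine, adrenaline and noradrenaline, serotonin, histamine and, in the case of the muscarinic class, acetylcholine. They were taken by symbol: every probe whose gene symbol in the platform annotation began with Drd, Adra, Adrb, Chrm, Hrh or Htr, leaving out the ion channel subunits Htr3a and Htr3b and the unrelated Adrm1. The rule itself uses no measured value, but it was set with earlier results of these data known. The rule found 34 of the 9653 named genes in the value table, and 32 of them were receptors. The other two, Htra1 and Htra2, are serine proteases whose symbols start with the same letters, and they are given apart. By transmitter there were 4 dopamine, 8 adrenergic, 12 serotonin, 3 histamine and 5 muscarinic receptors, each with 1 probe. Of the 32 receptors, 29 had values on enough arrays to be tested. Hrh2 had values on 8 arrays, Htr4 on 3 and Htr1b on 2, with an exact 0, treated as missing, on the others.

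These receptors act through heterotrimeric G proteins. Receptors of the Gs class raise cyclic AMP, those of the Gi/o class lower it and open or close ion channels, and those of the Gq/11 class activate phospholipase C and raise intracellular calcium. In cortex they set the excitability of pyramidal cells and interneurons and tune transmitter release, and monoamine and cholinergic tone is tied to arousal. Both agents used here are volatile general anaesthetics: halothane is an alkane and isoflurane an ether.

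RNA came from primary cortical neurons prepared from the fetal brains of 3 pregnant rats at day 17 of pregnancy and grown for 16 days in vitro. The 4 groups, with 3 two-colour arrays each, were halothane at 1 MAC (about 1%), halothane at 3 MAC (about 3%), isoflurane at 3 MAC (about 4%) and control. MAC, the minimum alveolar concentration, is a unit of potency, so the agents were matched at 3 MAC in potency and not in percent. Exposure lasted 6 h in a gas-tight chamber, and all plates were harvested after a further 6 h of recovery. Control plates stood in air in the same incubator but outside the chamber, so gas and chamber cannot be told apart. Cells were kept apart by mother. The labels do not say whether a replicate number marks a mother, and p-values measure the spread between arrays whatever its source.

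Each value is a log2 ratio of a sample (Cy5) to a pool of control RNA (Cy3). This direction and the base 10 of the deposited logarithms are likely and not stated. Were the ratio inverted, every higher would read lower and the reverse, and base 2 would make every log2 value smaller by a factor of 3.32. A ratio to a pool gives no level, so receptors cannot be ranked by abundance, and neither the receptors nor the markers of the labelled cell type could be judged against background. In these bulk cultures fewer cells of a type and less RNA per cell cannot be told apart.

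A pair of arrays stood apart. Halothane 1 MAC replicate 1 had a median log2 ratio of 0.235, against -0.006 to 0.009 on the other arrays, an SD of 0.818 against 0.315 to 0.481, and correlations across genes of -0.06 to 0.18 with every other array. Control 2 correlated at 0.74 to 0.77 with the halothane 3 MAC arrays and at -0.05 and 0.07 with the other controls. Both were kept, and beside several results below the value without them is given.

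A few receptor transcripts differed between isoflurane and halothane at 3 MAC, the comparison that asks whether the agents act differently at matched potency and time. With isoflurane, Adra1d, the alpha-1 adrenergic receptor of the D subtype, was 2.79-fold higher than with halothane, and the serotonin receptor Htr7 and the dopamine receptor Drd2 were 1.95-fold and 2.21-fold lower. These were 3 of 29 receptors (10.3%) past an adjusted p of 0.05 (limma, Benjamini-Hochberg over 16546 features), 1 higher and 2 lower, against 3.51% of all features in that comparison. At an unadjusted p under 0.05 there were 5 receptors (17.2%), against 16.8% of all features. The remaining 26 receptors differed between the agents by -0.55 to 0.38 on the log2 scale and did not pass. The median difference of the 29 receptors was 0.01, against -0.01 for all features.

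**Figure D1:**
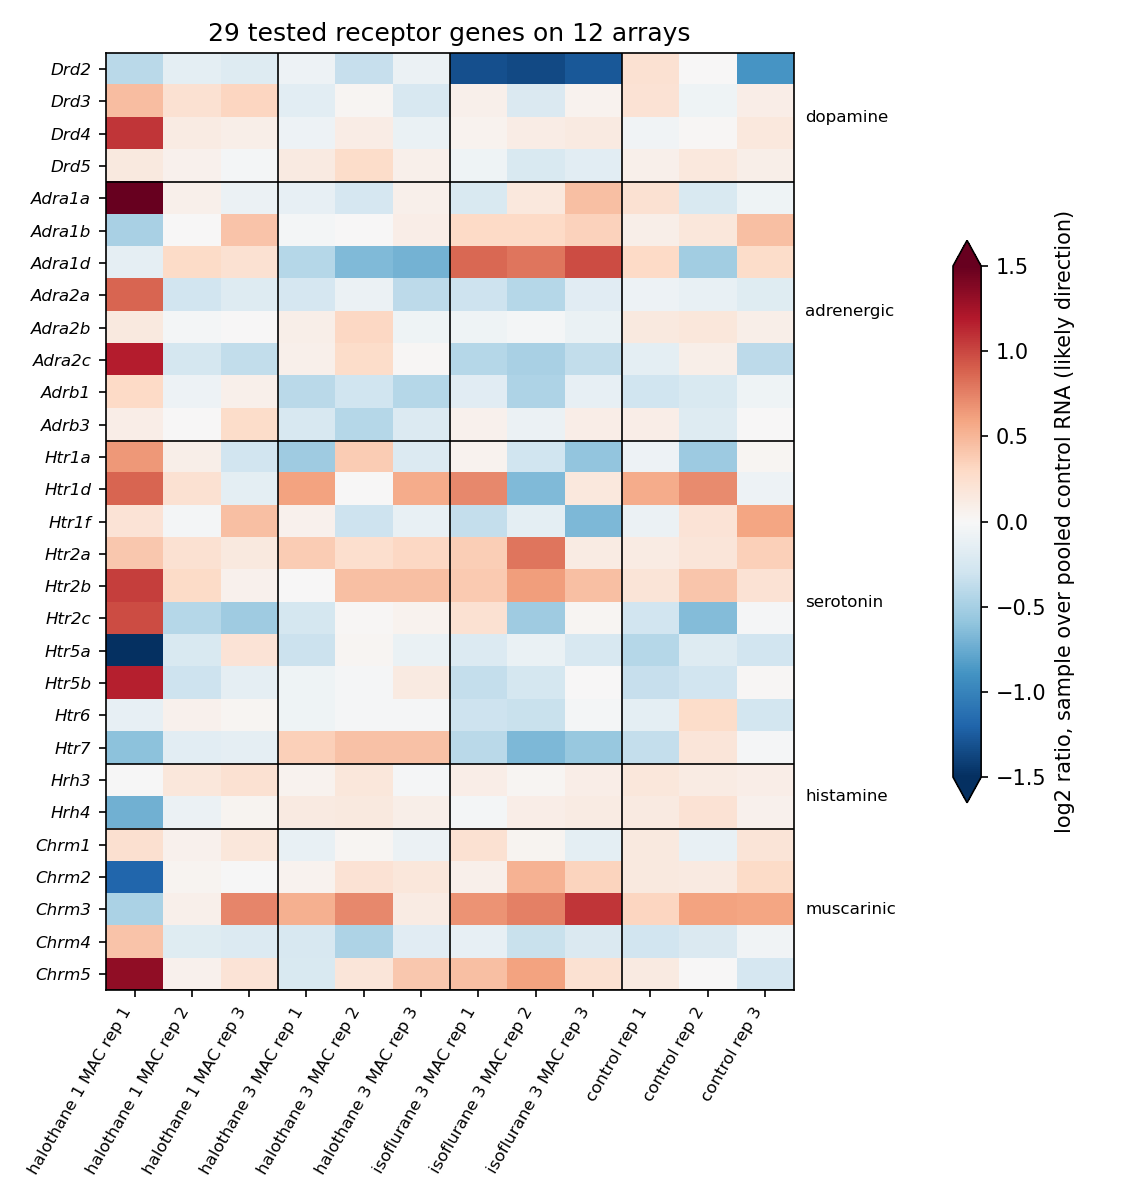
Log2 ratio of sample over pooled control RNA for the 29 tested receptors (rows, by transmitter) on the 12 arrays (columns, by group), with colours cut at 1.5 in either direction. The isoflurane arrays are darkest blue in the Drd2 row and red in the Adra1d row, and halothane 1 MAC replicate 1 differs from its 2 fellow arrays in rows such as Adra1a, Htr5a and Chrm5.

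Against control 0 of 29 receptors passed in limma in each treatment. The share of all features that passed was 0% for halothane at 1 MAC, 0% for halothane at 3 MAC and 0.0725% for isoflurane. At an unadjusted p under 0.05 there were 0 receptors of 29 for halothane at 1 MAC, where 7.54% of all features reached it. There were 2 for halothane at 3 MAC (6.9%, against 6.59% of all features) and 4 for isoflurane (13.8%, against 10.1%). The 2 halothane doses gave 0 receptors past the adjusted threshold and 5 at an unadjusted p under 0.05 (17.2%), where 0% and 18.5% of all features reached these marks.

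The dopamine receptors held the member with the lowest ratios of isoflurane to halothane. Drd2 encodes the D2 receptor, a Gi/o receptor that serves as autoreceptor on dopamine neurons, sits on striatal projection neurons and interneurons, and is the common target of antipsychotic drugs. Its log2 ratios were -0.41, -0.15 and -0.20 with halothane at 1 MAC and -0.08, -0.34 and -0.09 with halothane at 3 MAC. With isoflurane they were -1.32, -1.36 and -1.28, and in controls 0.23, 0.0026 and -0.88. All 3 isoflurane arrays lay below the other 9, and control 3 was the next lowest.

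The Drd2 difference between isoflurane and halothane at 3 MAC was -1.15 ± 0.24 (SE, 3 arrays each; adjusted p = 0.0303). It stayed between -1.23 and -1.10 with any 1 of the 12 arrays left out, but did not pass in the 6 fits that left out an isoflurane or a halothane 3 MAC array (adjusted p 0.0914 to 0.13), where 5 arrays remained in the comparison. Against control, isoflurane gave -1.10 ± 0.24 (2.14-fold lower, adjusted p = 0.116). Control 3 was the control nearest to isoflurane: the isoflurane mean lay 1.54 below control 1, 1.32 below control 2 and 0.43 below control 3. Without control 3 the difference was -1.43 (adjusted p = 0.00972). Without halothane 1 MAC replicate 1, which enters only the shared spread, it was -1.10 (adjusted p = 0.0398). Halothane gave -0.03 ± 0.24 at 1 MAC and 0.05 ± 0.24 at 3 MAC, and the sign of both changed with the control array left out (0.19 at 1 MAC without control 1, -0.29 at 3 MAC without control 3).

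The Drd2 gene lies on the forward strand of rat chromosome 8 (chr8:58605403-58669339, RefSeq, GRCr8). The 250 bases before its start, and those of Adra1d described below, are shown because these receptors had the largest differences between the agents. Capitals mark GC boxes (GGGCGG, or CCGCCC on the other strand), the letters bound by Sp-family factors.
Drd2, chr8:58605153-58605402, forward strand: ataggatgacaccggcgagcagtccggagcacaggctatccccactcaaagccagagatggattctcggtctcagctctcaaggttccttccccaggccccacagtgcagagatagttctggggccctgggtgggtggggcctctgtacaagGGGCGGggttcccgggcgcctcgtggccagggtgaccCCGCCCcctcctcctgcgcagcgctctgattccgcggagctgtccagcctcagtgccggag
Adra1d, chr3:139262332-139262581, reverse strand: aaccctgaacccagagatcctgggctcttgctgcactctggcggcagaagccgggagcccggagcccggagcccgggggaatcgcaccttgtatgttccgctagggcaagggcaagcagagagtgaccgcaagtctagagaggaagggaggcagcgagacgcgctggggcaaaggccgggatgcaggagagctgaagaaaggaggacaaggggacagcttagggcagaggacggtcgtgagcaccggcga
The Drd2 window held 2 GC boxes, beginning 98 and 61 bases before the start, and 14 CpG dinucleotides, with 66.0% G or C. The Adra1d window held 16 CpG dinucleotides and 64.0% G or C, and none of the letters searched. Of the 32 receptors, 25 had a RefSeq window, with a median of 64.0% G or C against 51.2% over all 33469 windows. The window of Htr7 is among the 25, but it lies inside the gene and is not shown. A GC box was found in 11 of the 25 (30.5% of all windows), the TATA letters TATAAA in 1 (12.9%), CCAAT in 8 (34.0%) and the cyclic AMP response letters TGACGTCA in 0 (1.6%), each searched on both strands.

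The other dopamine receptors differed less. Drd3 and Drd4, like Drd2 coupled to Gi/o, averaged -0.03 ± 0.16 and 0.10 ± 0.04 with isoflurane (log2 ratio, SD, n = 3), against 0.08 ± 0.15 and 0.04 ± 0.11 in controls. Drd5, a Gs receptor of the D1 type, had log2 ratios of -0.06, -0.23 and -0.16 with isoflurane, against 0.14, 0.27 and 0.08 with halothane at 3 MAC and 0.07, 0.16 and 0.09 in controls. The isoflurane arrays of Drd5 thus lay below all arrays of both groups. The differences, -0.31 ± 0.12 against halothane and -0.26 ± 0.12 against control, did not pass (adjusted p = 0.216 and 0.528). Without control 2 and halothane 1 MAC replicate 1 the difference from halothane was the same -0.31 with an adjusted p of 0.0447. Drd3 was 0.46 ± 0.15 lower at 3 MAC than at 1 MAC of halothane with no overlap between the groups (-0.15, 0.03 and -0.24, against 0.46, 0.23 and 0.32), and did not pass either (adjusted p = 0.137; without the same 2 arrays -0.40, adjusted p = 0.0828).

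Among adrenergic receptors, Adra1d was high with isoflurane and low with halothane at 3 MAC. It encodes a Gq/11 receptor for noradrenaline that mediates vascular contraction and is also expressed in cortex and hippocampus. Its log2 ratios were -0.14, 0.29 and 0.23 with halothane at 1 MAC and -0.43, -0.67 and -0.71 with halothane at 3 MAC. With isoflurane they were 0.86, 0.80 and 0.98, and in controls 0.29, -0.52 and 0.28. Every isoflurane array was above the other 9, and control 2 lay among the halothane 3 MAC arrays.

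The Adra1d difference between isoflurane and halothane at 3 MAC was 1.48 ± 0.22 (adjusted p = 0.0124). It was 1.43 to 1.57 with any 1 array left out and passed in 7 of those 12 fits; of the 6 fits that left out an array of either agent, the one without isoflurane replicate 2 passed (adjusted p = 0.0459) and the other five gave 0.056 to 0.0825. Against control, isoflurane gave 0.86 ± 0.22 (1.81-fold higher, adjusted p = 0.151) and halothane at 3 MAC gave -0.62 ± 0.22 (1.54-fold lower, adjusted p = 0.706). Control 2 lay apart from the other controls for this gene. The isoflurane mean lay above controls 1, 2 and 3 by 0.59, 1.40 and 0.60, and the halothane 3 MAC mean differed from them by -0.90, -0.08 and -0.88. Without control 2 the halothane difference was -0.89 (adjusted p = 0.022), and without control 2 and halothane 1 MAC replicate 1 the isoflurane difference was 0.59 (adjusted p = 0.0372). Between the halothane doses Adra1d was 0.73 ± 0.22 lower at 3 MAC than at 1 MAC (adjusted p = 0.116), and without control 2 in the shared fit that difference had an adjusted p of 0.0243.

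The close relatives of Adra1d had smaller differences of the same sign between the agents. Adra1a and Adra1b, also Gq/11 receptors, averaged 0.13 ± 0.34 and 0.32 ± 0.03 with isoflurane, against -0.10 ± 0.16 and 0.03 ± 0.07 with halothane at 3 MAC and -0.02 ± 0.23 and 0.23 ± 0.19 in controls. Isoflurane minus halothane at 3 MAC was 0.23 ± 0.50 for Adra1a and 0.29 ± 0.20 for Adra1b, whose arrays did not overlap between the agents, and neither passed (adjusted p = 0.927 and 0.571). The alpha-2 receptors are Gi/o autoreceptors that restrain noradrenaline release and are the targets of sedatives such as dexmedetomidine. Adra2c averaged -0.43 ± 0.06 with isoflurane, against 0.12 ± 0.13 with halothane at 3 MAC and -0.15 ± 0.24 in controls. Its arrays did not overlap between the agents, but the difference of -0.55 ± 0.33 did not pass (adjusted p = 0.477). Halothane 1 MAC replicate 1 stood at 1.18 for Adra2c, against -0.26 and -0.37 on its fellow arrays. Without it and control 2 the difference between the agents was -0.55 ± 0.11 (adjusted p = 0.00665), and that of halothane at 3 MAC over 1 MAC was 0.44 ± 0.12 (adjusted p = 0.0461), where all arrays gave -0.06 ± 0.33. Adra2a and Adra2b differed between the agents by -0.06 ± 0.26 and -0.17 ± 0.13.

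The beta receptors, which couple to Gs, had lower ratios at the higher halothane dose but did not pass. Adrb1 log2 ratios were 0.30, -0.08 and 0.07 with halothane at 1 MAC, -0.40, -0.30 and -0.43 with halothane at 3 MAC, -0.18, -0.46 and -0.12 with isoflurane, and -0.30, -0.23 and -0.06 in controls. Those of Adrb3 were 0.10, 0.01 and 0.27 with halothane at 1 MAC, -0.24, -0.42 and -0.21 with halothane at 3 MAC, 0.06, -0.08 and 0.09 with isoflurane, and 0.10, -0.19 and 0.0066 in controls. In both genes the 3 MAC arrays of halothane lay below all 1 MAC arrays, and in Adrb3 below all controls too. The differences between the doses were -0.48 ± 0.15 for Adrb1 and -0.42 ± 0.14 for Adrb3 (adjusted p = 0.135 and 0.146). Without control 2 and halothane 1 MAC replicate 1 they were -0.37 and -0.43 (adjusted p = 0.114 and 0.0526). Against control, Adrb3 gave -0.26 ± 0.14 at 3 MAC (adjusted p = 0.821) and Adrb1 gave 0.29 ± 0.15 at 1 MAC (adjusted p = 0.626), or 0.18 ± 0.15 without those 2 arrays (adjusted p = 0.739).

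**Figure D2:**
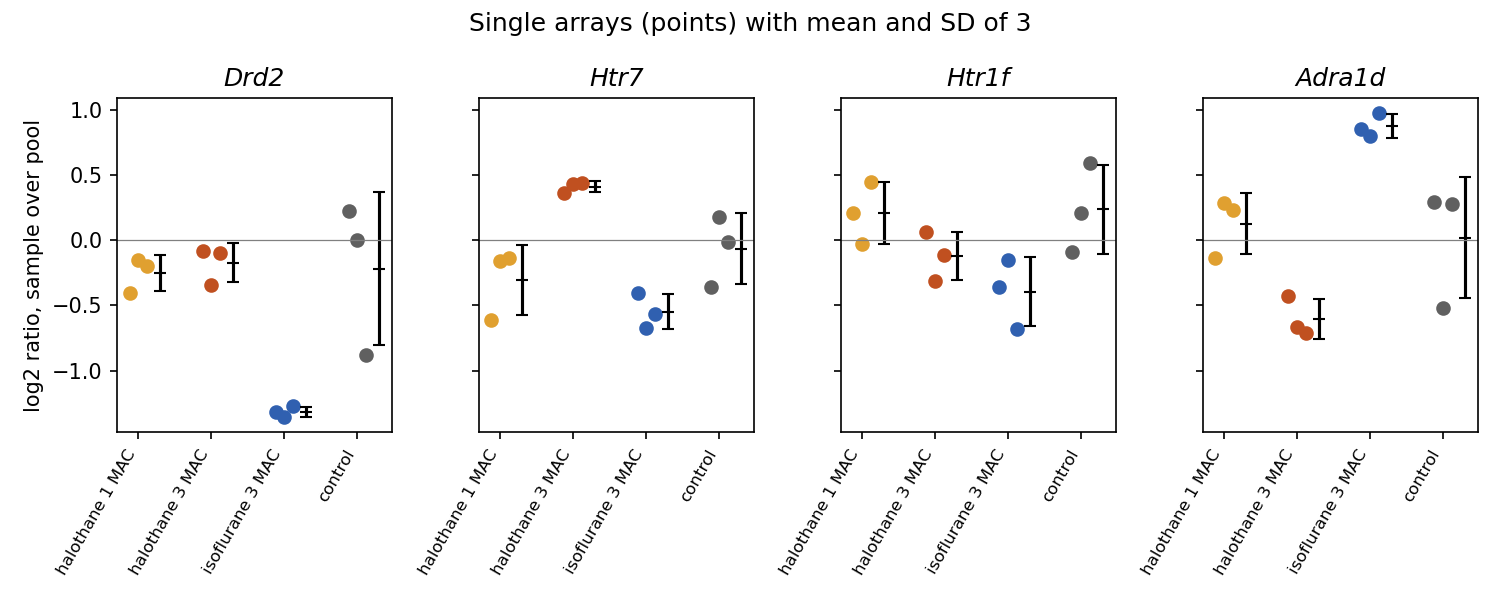
Log2 ratios of sample over pool for Drd2, Htr7, Htr1f and Adra1d on single arrays (points) in the 4 groups, with bars for the mean and SD of 3. The 3 isoflurane arrays lie below the 3 halothane 3 MAC arrays in Drd2 and Htr7, above them in Adra1d, and overlap no control in any panel.

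Among serotonin receptors, Htr7 separated the agents at 3 MAC. It encodes a Gs receptor with roles in circadian timing, thermoregulation and mood. Its log2 ratios were -0.61, -0.16 and -0.14 with halothane at 1 MAC and 0.36, 0.44 and 0.44 with halothane at 3 MAC. With isoflurane they were -0.41, -0.67 and -0.56, and in controls -0.36, 0.18 and -0.01. The isoflurane arrays lay below every control and the halothane 3 MAC arrays above every control.

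The Htr7 difference between isoflurane and halothane at 3 MAC was -0.96 ± 0.18 (adjusted p = 0.0213). It was -1.03 to -0.90 with any 1 array left out and did not pass in the 6 fits without an array of either agent (adjusted p 0.0673 to 0.102). Against control, isoflurane gave -0.48 ± 0.18 (adjusted p = 0.356) and halothane at 3 MAC gave 0.48 ± 0.18 (adjusted p = 0.706), about the same size with opposite signs, and neither passed. Without control 2 and halothane 1 MAC replicate 1, the halothane difference was 0.60 (adjusted p = 0.0159). Between halothane doses Htr7 was 0.71 ± 0.18 higher at 3 MAC than at 1 MAC (adjusted p = 0.0794). Without control 2 in the shared fit that difference had an adjusted p of 0.0405.

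Htr1f, a Gi/o receptor and the target of the migraine drug lasmiditan, was lowest with isoflurane. Its log2 ratios were 0.21, -0.03 and 0.45 with halothane at 1 MAC, 0.06, -0.31 and -0.11 with halothane at 3 MAC, -0.36, -0.15 and -0.68 with isoflurane, and -0.09, 0.21 and 0.59 in controls. No isoflurane array overlapped a control, but 1 of them lay among the halothane 3 MAC arrays. The difference from control was -0.63 ± 0.21 (1.55-fold lower, adjusted p = 0.307), and that from halothane at 3 MAC was -0.28 ± 0.21 (adjusted p = 0.621).

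The other tested serotonin receptors overlapped between isoflurane and control. Of the Gq/11 members, Htr2a, the receptor through which classical psychedelics act, averaged 0.43 ± 0.34 with isoflurane and 0.22 ± 0.12 in controls. Htr2b averaged 0.49 ± 0.12 and 0.27 ± 0.12 in the same groups, and Htr2c -0.09 ± 0.39 and -0.32 ± 0.32. Htr1a, the somatodendritic autoreceptor of serotonin neurons, averaged -0.28 ± 0.32 with isoflurane and -0.20 ± 0.30 in controls. Htr1d, a Gi/o autoreceptor on serotonin terminals, had the widest spread of the 29 over the isoflurane arrays, with an SD of 0.70. Htr5a, Htr5b and Htr6 differed from control by -0.18 to 0.12 with isoflurane. Htr1b had a value on 1 halothane 1 MAC array (-0.76) and 1 control (0.21), and Htr4 on 2 halothane 1 MAC arrays (0.48 and 0.17) and 1 isoflurane array (-0.17).

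The muscarinic receptors, which carry the slow actions of acetylcholine, were all a little higher with isoflurane than with halothane at 3 MAC, and none passed. The 5 differences ran between 0.06 and 0.38 on the log2 scale with a median of 0.16. Of all 16546 features, 8129 were above 0 in that comparison. At an unadjusted p under 0.05 (limma) there were 0 of 5, against 16.8% of all features. All 5 stayed above 0 under each of the 3 rescalings of the arrays (4 or 5 with 1 array left out). The arrays of both agents already had nearly equal medians, so the rescalings were a weak check. Chrm3, a Gq/11 receptor, averaged 0.83 ± 0.21 with isoflurane, against 0.46 ± 0.31 with halothane at 3 MAC and 0.51 ± 0.16 in controls. Chrm5, also Gq/11 and found on dopamine neurons, averaged 0.43 ± 0.19 with isoflurane, against 0.12 ± 0.32 and -0.04 ± 0.19 in the same groups. The isoflurane arrays of both lay above every control array, and the differences of 0.33 ± 0.27 and 0.46 ± 0.30 did not pass (adjusted p = 0.814 and 0.704). Chrm1, the main muscarinic receptor of cortical pyramidal cells, differed by 0.10 ± 0.14 from halothane and -0.03 ± 0.14 from control.

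With halothane at 1 MAC, the members of smallest p against control were Hrh4, Chrm2 and Adrb1, and those of Hrh4 and Chrm2 rested largely on replicate 1. Chrm2, a Gi/o receptor and presynaptic autoreceptor on cholinergic terminals, had log2 ratios of -1.19, 0.04 and -0.01 with halothane at 1 MAC, 0.05, 0.22 and 0.17 with halothane at 3 MAC, 0.07, 0.52 and 0.33 with isoflurane, and 0.15, 0.14 and 0.29 in controls. Hrh4, a histamine receptor best known from blood cells, had -0.72, -0.08 and 0.04 with halothane at 1 MAC, 0.13, 0.15 and 0.09 with halothane at 3 MAC, -0.03, 0.10 and 0.13 with isoflurane, and 0.13, 0.22 and 0.07 in controls. In both genes replicate 1 lay far below its 2 fellow arrays. The differences of -0.58 ± 0.28 and -0.39 ± 0.18 did not pass (adjusted p = 0.626 for each), and with 1 array left out they reached as little as -0.17 and -0.16. Without control 2 and halothane 1 MAC replicate 1 they were -0.20 and -0.12 (adjusted p = 0.704 and 0.769).

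Hrh3, the histamine autoreceptor of the brain, averaged 0.13 ± 0.12 with halothane at 1 MAC, 0.07 ± 0.09 with halothane at 3 MAC, 0.08 ± 0.04 with isoflurane and 0.13 ± 0.03 in controls. Hrh2 was not tested: it had values of 1.02 and -0.26 on 2 halothane 1 MAC arrays, 0.28, 0.08 and 0.48 with halothane at 3 MAC, -0.80 and 0.28 on 2 isoflurane arrays, and -0.19 on 1 control. Of the proteases caught by the rule, Htra1 had log2 ratios of -0.79, -0.91 and -0.86 with halothane at 3 MAC, against 0.04, -0.0031 and 0.10 with isoflurane and 0.10, -0.90 and 0.32 in controls. It was 0.90 ± 0.26 higher with isoflurane than with halothane at 3 MAC (adjusted p = 0.0853), with control 2 at the halothane level. Htra2 differed between the agents by -0.02 ± 0.17.

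**Figure D3:**
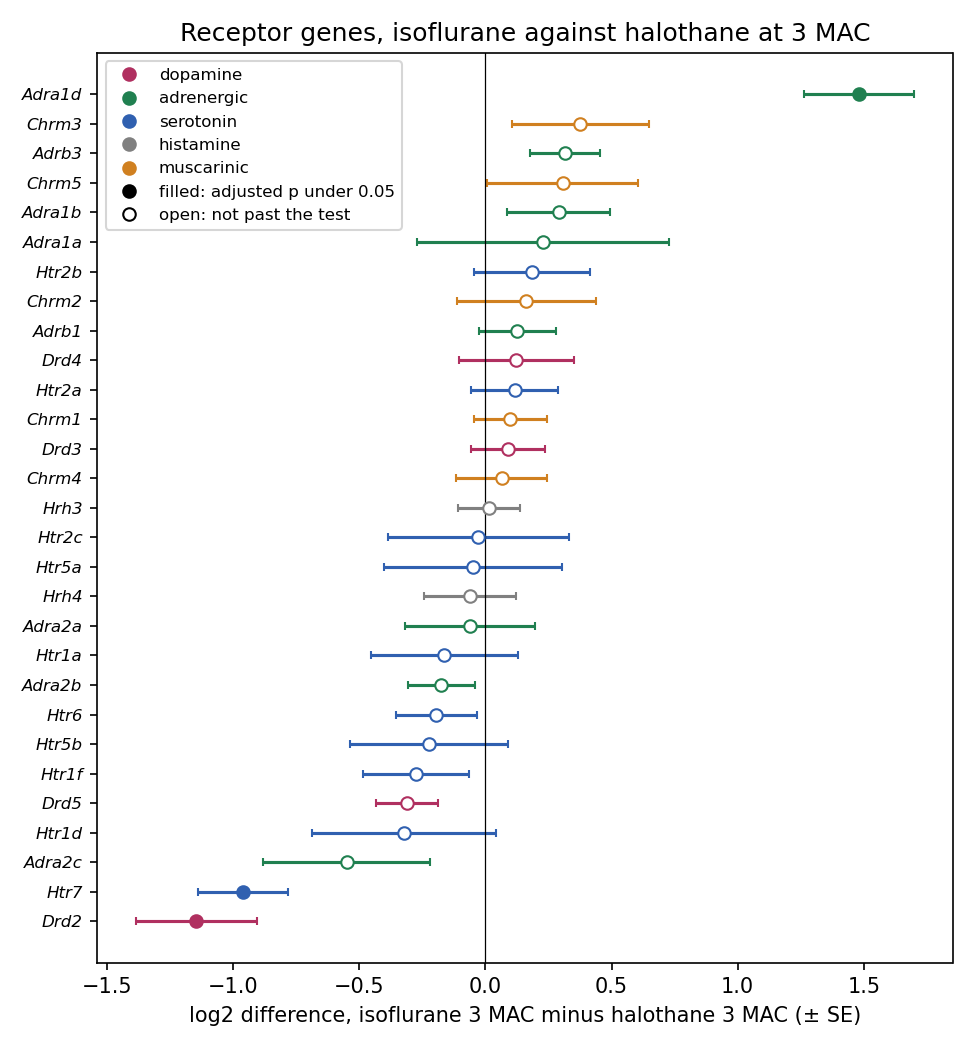
Difference in log2 ratio, isoflurane 3 MAC minus halothane 3 MAC, for the 29 receptors in order of size, with bars of 1 standard error, coloured by transmitter. Adra1d stands alone at the top at 1.48 and Htr7 and Drd2 at the bottom at -0.96 and -1.15, and those 3 filled points passed the test.

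A receptor that did not pass is not thereby shown to respond alike to the alkane and the ether. The 95% intervals of the difference between the agents held 0 for 24 of the 26 receptors that did not pass. The widest, that of Adra1a, ran between -0.87 and 1.32. Its width rests on the shared spread, which includes halothane 1 MAC replicate 1. That array stood at 2.35 for Adra1a, against 0.07 and -0.09 on its fellow arrays. Without it and control 2 the Adra1a difference between the agents was 0.23 ± 0.17 (SE). For Hrh3 the interval was -0.26 to 0.28, and for Drd5 and Adrb3, which did not pass after adjustment, it was -0.58 to -0.04 and 0.01 to 0.62.

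Grouped by G protein, the receptors that signal through Gq/11 were mostly above control with isoflurane, and those of the Gi/o and Gs classes mostly below. Against control, 8 of 9 Gq/11 receptors had a difference above 0 with a median of 0.22, against 4 of 15 Gi/o receptors with a median of -0.08 and 1 of 5 Gs receptors with a median of -0.18. The median over all features was 0.00. At an unadjusted p under 0.05 (limma) there were 1 of 9 Gq/11, 2 of 15 Gi/o and 1 of 5 Gs receptors, against 10.1% of all features. Averaged over the class, Gq/11 receptors had log2 ratios of 0.36, 0.40 and 0.39 on the isoflurane arrays. They had -0.03, 0.08 and 0.08 with halothane at 3 MAC, 0.58, 0.07 and 0.15 with halothane at 1 MAC, and 0.14, -0.01 and 0.20 in controls. Adra1d was the only Gq/11 member to pass in any comparison, and it passed between the agents. The Gq/11 median was 0.10 to 0.21 under the 3 rescalings and 0.15 to 0.28 with any 1 array left out, and with 1 array left out the Gi/o median ran between -0.17 and -0.03 and the Gs median between -0.26 and -0.07. The Gq/11 count was 8 under each of the 3 rescalings and 8 or 9 with any 1 array left out, while the Gi/o count ran between 3 and 6 and the Gs count between 0 and 2. With halothane at 3 MAC the same classes gave 4 of 9, 5 of 15 and 3 of 5 above control. With halothane at 1 MAC they gave 7 of 9, 7 of 15 and 3 of 5, and the Gq/11 count there was 4 or 5 under the rescalings. Of all 16546 features, 8375 were above control with isoflurane, 8453 with halothane at 3 MAC and 10067 with halothane at 1 MAC.

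Counts of receptors whose arrays did not overlap between groups can be set beside the same share of all features. Between isoflurane and control 3 receptors lay above all controls (10.3%, against 12.8% of features) and 6 below (20.7%, against 9.93%). Those above were Adra1d, Chrm3 and Chrm5, and those below were Drd2, Drd5, Htr1f, Htr7, Adra2b and Hrh3. Hrh3 counts only by a very small margin, with a highest isoflurane value of 0.1046 and a lowest control of 0.105. Between isoflurane and halothane at 3 MAC there were 3 above (10.3%, against 19.5%) and 4 below (13.8%, against 17.9%). Halothane at 3 MAC had 1 receptor above control, Htr7 (3.45%, against 9.13%), and 1 below, Adrb3 (3.45%, against 6.97%). Halothane at 1 MAC had 1 receptor above control, Drd3 (3.45%, against 6.29%), and 2 below, Hrh4 and Chrm2 (6.9%, against 3.9%). Between the halothane doses, 3 receptors lay higher at 3 MAC than at 1 MAC, namely Htr7, Hrh4 and Chrm2 (10.3%, against 12.2%), and 5 lay lower, namely Adra1d, Adrb1, Adrb3, Drd3 and Chrm1 (17.2%, against 15.4%).

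The rest of the signalling chain was read from 4 lists. Among 17 tested genes of transmitter synthesis, release, uptake and breakdown, 0 passed against control (at an unadjusted p under 0.05, 1 with halothane at each dose and 0 with isoflurane) and 1 of 17 passed between the agents. The shares of all features were 7.54% and 6.59% at that p with halothane at 1 and 3 MAC, 10.1% with isoflurane, and 3.51% past the adjusted threshold between the agents. Slc18a3, which loads acetylcholine into vesicles, had log2 ratios of -0.62, -0.38 and -0.57 with isoflurane, against 0.27, 0.61 and 0.37 with halothane at 3 MAC and -0.33, 0.31 and -0.51 in controls. It was 0.94 ± 0.21 lower with isoflurane than with halothane at 3 MAC (adjusted p = 0.036), with control 2 again at the halothane level. Slc5a7, the choline transporter of cholinergic terminals, and Ddc, which makes dopamine and serotonin from their precursors, gave -1.01 ± 0.36 and -0.88 ± 0.29 between the agents and did not pass (adjusted p = 0.162 and 0.122). Th, the first enzyme of dopamine synthesis, averaged -0.48 ± 0.29 with isoflurane, against -0.31 ± 0.04 with halothane at 3 MAC and -0.22 ± 0.04 in controls.

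Among 23 kinases, arrestins and RGS proteins, which end receptor signalling, 0 passed against control (at an unadjusted p under 0.05, 3 and 2 with halothane at 1 and 3 MAC and 3 with isoflurane, where 7.54%, 6.59% and 10.1% of all features reached it) and 1 of 23 passed between the agents, against 3.51% of all features. Rgs4, which shortens signalling through Gq/11 and Gi/o, had log2 ratios of 0.53, 0.76 and 0.62 with isoflurane, against -0.45, -0.24 and -0.42 with halothane at 3 MAC and -0.59, -0.20 and -0.30 in controls. It was 1.00 ± 0.19 higher with isoflurane than with halothane (2.01-fold, adjusted p = 0.0227). Against control the difference was 1.00 ± 0.19 too and did not pass (adjusted p = 0.0836). Grk5, a receptor kinase, was next at 0.71 ± 0.20 above control (adjusted p = 0.195).

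Neither G protein subunits nor second-messenger effectors passed in any comparison (0 of 23 and 0 of 25 in limma, and 2 and 5 at an unadjusted p under 0.05 for isoflurane against control, where 10.1% of all features reached it). The largest subunit difference of isoflurane from control was that of Gng11, a gamma subunit, at 1.03 ± 0.30 (adjusted p = 0.224), and Gnaq, the alpha subunit of Gq, gave -0.38 ± 0.14 (adjusted p = 0.368). Creb1, the transcription factor activated by cyclic AMP signalling, gave 0.66 ± 0.20 (adjusted p = 0.237). Ppp1r1b, the dopamine-regulated phosphatase inhibitor DARPP-32, had log2 ratios of -0.63, -0.70 and -0.69 with isoflurane and 0.14, -0.14 and 0.03 with halothane at 3 MAC. It had -0.51, -0.57 and -0.58 with halothane at 1 MAC, and -0.48, 0.15 and -0.44 in controls. The difference between the agents of -0.68 ± 0.17 had an adjusted p of 0.0513.

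Several markers of striatal neurons were low on the isoflurane arrays, as Drd2 was, and some were low on other arrays too. Of 9 genes on a list of dopamine or striatal neuron markers 8 were measured, and 0 of 8 passed in any comparison (4 at an unadjusted p under 0.05 between the agents, where 16.8% of all features reached it). Penk, the enkephalin precursor made by the striatal neurons that carry Drd2, had log2 ratios of -0.81, -0.98 and -0.75 with isoflurane, against 0.52, 0.42 and 0.39 with halothane at 3 MAC and 0.20, 0.63 and -1.10 in controls. The difference between the agents was -1.29 ± 0.33 (adjusted p = 0.0584). Adora2a, the adenosine receptor of the same neurons, gave -1.35 (adjusted p = 0.0879), and Rgs9 gave -0.62 ± 0.25 (adjusted p = 0.227). Control 3 was the lowest control for Drd2, Penk, Adora2a and Rgs9 alike. In Penk, Adora2a and Rgs9 it lay below every isoflurane array.

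Averaged over the 7 markers with values on all arrays, the list stood at -0.34, -0.42 and -0.38 with isoflurane, against 0.21, 0.07 and 0.15 with halothane at 3 MAC and -0.20, 0.20 and -0.52 in controls. With halothane at 1 MAC the list stood at 0.35, -0.25 and -0.21, where Drd2 stood at -0.41, -0.15 and -0.20. Pde10a, also a striatal gene, went the other way, at 0.40 to 0.46 with isoflurane and -0.34 to 0.13 in controls. Markers of inhibitory neurons averaged -0.36, -0.52 and -0.36 with isoflurane, against -0.18, -0.22 and -0.13 with halothane at 3 MAC and 0.02, -0.04 and -0.18 in controls. Of 11 tested, 3 passed lower with isoflurane than with halothane at 3 MAC and 1 higher, against 3.51% of all features in either direction. Gad1, which makes GABA, was 1.21 lower (adjusted p = 0.0287), as were Sst and Slc32a1 by 1.14 and 1.02, while Vip was 1.96 higher (adjusted p = 0.029). The part of these cell types in the Drd2 result was not tested.

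**Figure D4:**
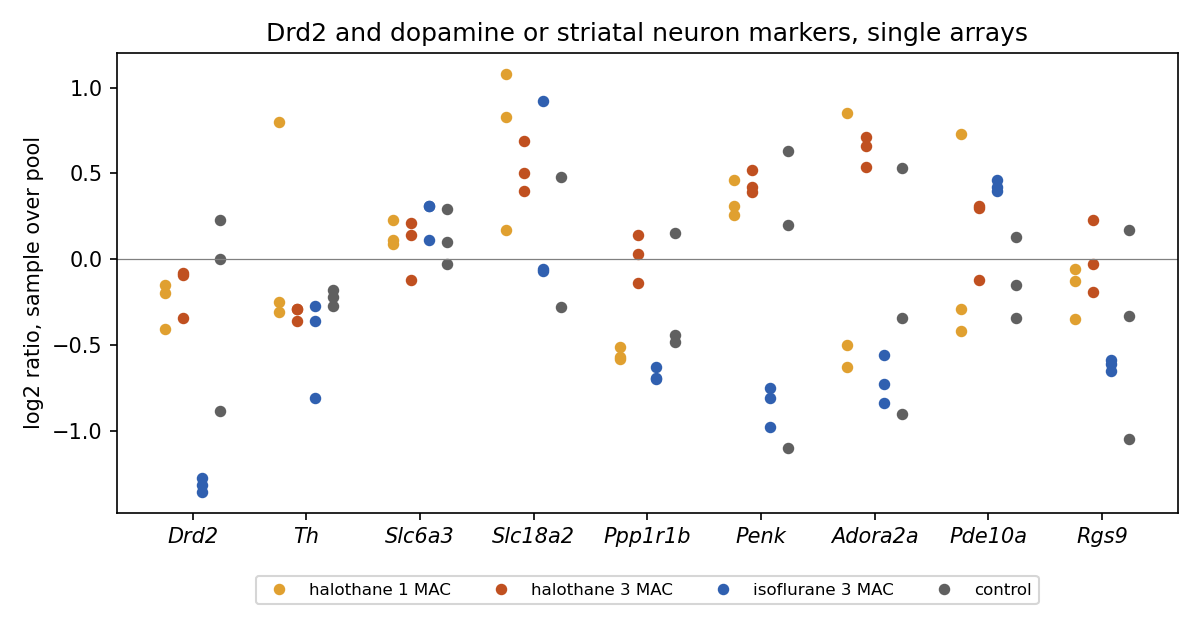
Log2 ratios of sample over pool on single arrays for Drd2 and the 8 measured markers of dopamine or striatal neurons, with the groups side by side within each gene. Isoflurane arrays sit low in Drd2, Ppp1r1b, Penk, Adora2a and Rgs9 and not in Slc6a3 or Pde10a. Control 3 sits low in Drd2 and below every isoflurane array in Penk, Adora2a and Rgs9. Ppp1r1b is also low with halothane at 1 MAC (-0.51, -0.57 and -0.58) and in controls 1 and 3 (-0.48 and -0.44). In Adora2a, halothane 1 MAC replicates 2 and 3 sit low too (-0.5 and -0.63), and replicate 1 does not (0.85).

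Astrocyte markers as a set moved with Adra1d, though 2 of the 11 tested went the other way between the agents. Over 11 of them the mean log2 ratio was 0.10, 0.12 and 0.22 with isoflurane, against -0.82, -0.85 and -0.94 with halothane at 3 MAC and 0.33, -0.82 and 0.11 in controls, so halothane at 3 MAC and control 2 were low in both. Between the agents, 4 of 11 astrocyte markers passed higher and 1 lower, against 3.51% of all features in either direction, with Gfap, the astrocyte filament protein, 2.94 higher with isoflurane (adjusted p = 0.017). Aldh1l1 and Fabp7 were 0.74 and 0.67 lower with isoflurane (adjusted p = 0.0373 and 0.116). The astrocyte mean with halothane at 1 MAC stood at 0.07, 0.23 and 0.20. The isoflurane arrays exceeded controls 1 and 3 in Adra1d (0.80 to 0.98, against 0.29 and 0.28). In the astrocyte mean they lay below control 1 (0.33) and on both sides of control 3 (0.11). Microglia markers were also higher with isoflurane than with halothane at 3 MAC, 7 of 7 with a median difference of 0.48, and 0 passed. Over 6 of them the mean was 0.59, -0.69 and -0.11 with isoflurane and -0.62, -0.66 and -0.54 with halothane at 3 MAC. In controls it was -0.23, -0.59 and 0.15. The part of astrocytes or microglia in the Adra1d and Htr7 results was not tested.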

How the data were processed

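Two-colour arrays of 12 samples (4 groups of 3) were analysed from the authors' value table. The values are read as log10 ratios of Cy5 over Cy3, with dyes per the labels; base and direction are not stated in the deposited table. Over 136 features that varied among controls, the median over features of the controls' averaged linear ratio was 1.06 for sample over pool and 1.48 for its inverse (0.97 and 1.07 with base 2). Partek is named per the submitters' processing notes; how background and dyes were corrected is not given in the sources used here. The number of arrays limits precision, and intensities of spots were not used here.

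Values were multiplied by 3.32 to give log2. Exact zeros (15439 values, 6.0%) were treated as missing, and 471 unnamed spots at the 100-fold limit were left out. On halothane 1 MAC replicate 1, 0 of these spots were at the limit, against 467 to 471 on the other arrays. That array also had 330 exact zeros, against 953 to 2124 elsewhere. The reason was not tested. Of 21575 spots, 12750 (59.1%) had 1 gene symbol, 5 several and 8820 none, and 12720 matched the RefSeq table. Array medians were 0.235 on halothane 1 MAC replicate 1 and -0.006 to 0.009 elsewhere. Probes were averaged per gene, and a feature was tested if each group had at least 2 arrays with a value, which left 16546 features (9210 named genes). No columns were left unused (0).

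One model with a mean per group was fitted over all arrays (limma 3.58.1, R 4.3.3; lmFit, then eBayes with 3.46 prior and 8 residual degrees of freedom). Tests were two-sided with Benjamini-Hochberg adjustment and a threshold of 0.05. SE comes from this fit and SD from 3 arrays. Intervals at 95% use the moderated degrees of freedom. The fit was also run on simulated data, with 100 features changed by 1 and 100 by 2 on the log2 scale. It recovered 88 and 97 of them, with 12 false calls. The simulated spread was taken without the halothane 1 MAC arrays, so the test does not cover the noise that replicate 1 of that group adds. Python 3.11.15, pandas 2.3.3, numpy 2.4.6 and matplotlib 3.10.9 made the tables and plots. Deviations of same-numbered arrays from their group means correlated at -0.077 to 0.097 (18 pairs), so the numbers were not taken as pairs. Array by array values are given for Drd2 and for the 3 receptors of smallest p in each treatment against control, and for a few others chosen after their values were seen (Drd5, Drd3, Hrh2, Htr1b, Htr4, Htra1). From each list up to 3 genes of smallest p were named, and a few more between the agents. The receptors, lists and tests were chosen with earlier results of these data known. Alternatives were other treatments of zeros, probes and scaling, array weights, other sets of arrays and features, and the replicate number as a block.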

Additional observations from a re-analysis of the deposited data

Results flagged for a closer look

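Between isoflurane and halothane at 3 MAC, 3 receptors passed the test of the difference itself. Isoflurane minus halothane was 1.48 on the log2 scale for Adra1d, -0.96 for Htr7 and -1.15 for Drd2. The 3 arrays of each agent were separated in every case. With any 1 array left out, Adra1d passed in 7 of 12 fits, and Htr7 and Drd2 in 6 of 12. Controls cancel in the difference, but a trait of the halothane 3 MAC plates that did not come from the gas would not. Control 2, kept in air, correlated at 0.74 to 0.77 with the halothane 3 MAC arrays, and the reason was not tested. Groups of 3 arrays were too small to test for single arrays far from the rest.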

How the results depend on the processing

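The differences of Adra1d, Htr7 and Drd2 between isoflurane and halothane at 3 MAC kept their sign in every alternative run. With the replicate block in the fit, 431 features and the same 3 receptors passed between the agents (adjusted p 0.0274 for Adra1d, 0.0317 for Htr7 and 0.047 for Drd2), and 1 feature passed for isoflurane against control. Drd2 between the agents ran between -1.23 and -1.10 with 1 array left out. Arrays weighted by fit gave 4, 724, 346, 4209 and 4390 features for halothane 1 MAC, halothane 3 MAC and isoflurane against control, the halothane doses, and the agents, against 0, 0, 12, 0 and 580 as reported, and 2, 2, 6 and 6 receptors in the last 4. Leaving out control 2 and halothane 1 MAC replicate 1 together, a choice made after seeing the data, gave 2, 1791, 270, 1637 and 2994 features and 0, 2, 1, 3 and 5 receptors. With 1 array left out the features ran between 0 and 4, 0 and 465, 1 and 386, 0 and 698, and 0 and 2047, and the receptors between 0 and 0, 0 and 1, 0 and 1, 0 and 2, and 0 and 4. Fitting only the 2 groups compared gave 1 feature for isoflurane against control, 297 between halothane doses and 2807 between the agents. Quantile normalization gave 1, 4 and 150 features for halothane 1 MAC, isoflurane and the doses, median scaling gave 1 and 21 for halothane 1 MAC and the doses, and zeros kept as values gave 1 for halothane 1 MAC and 7 for isoflurane. Drd2 with isoflurane against control was -1.18 with weighted arrays (adjusted p = 0.015) and -1.43 to -0.88 with 1 array left out. Near-zero differences that changed sign against control were Drd2 with halothane at 1 MAC (-0.37 to 0.19 with 1 array left out, with 0.19, 0.08 and 0.05 without control 1, control 2 or halothane 1 MAC replicate 1, and 0.16 without both arrays that stood apart), Drd2 with halothane at 3 MAC (-0.29 to 0.27, the lowest without control 3), Adra1d with halothane at 1 MAC (-0.16 to 0.25, the lowest without control 2, and -0.03 without both) and Htr7 with halothane at 1 MAC (0.04 without both). Fits with an array left out had smaller groups, and calls were both lost and gained there. The cause of these changes was not tested.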
